A study of Drosophila melanogaster with 26 samples.

Results

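The cytosolic ribosomal proteins were taken as all features of the deposited table whose name begins with RpL or RpS followed by a digit or a P. This gave 84 of 14659 features, 49 named for the large subunit and 35 for the small subunit of the ribosome. RNA was sequenced, after removal of ribosomal RNA, from fat body of female Drosophila melanogaster larvae in the third instar, at the wandering stage. The larvae had been reared on food with 0.15 M sucrose (control diet) or 0.7 M sucrose (high-sugar diet). All 26 libraries came from offspring of males of the stock w1118 or 60100 and females with an X-linked UAS-Dcr2 transgene and either cg-GAL4 or r4-GAL4, drivers active in fat body. Every group, on both diets, thus carried UAS-Dcr2 and a GAL4 driver, and the submitters describe these offspring as the controls of RNA interference crosses.

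The libraries form 4 sets, called here by their first and last library numbers. Sets 13-21 and 49-54 are w1118 cg, set 55-63 is w1118 r4, and set 67-92 is 60100 r4. Each set holds both diets, with 3 control and 3 high-sugar libraries in the first 3 sets and 4 of each in set 67-92. Fat bodies were freed by hand under fine dissection or by shearing and centrifugation, and the labels do not say which way was used for which library. Nor do the labels state whether libraries of a group stem from different larvae, and p-values therefore measure only the spread between these libraries, which may be technical.

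Ribosomal proteins assemble with ribosomal RNA into the small subunit, which reads the messenger RNA, and the large subunit, which joins amino acids. They are needed in near-equal numbers, and in flies the loss of 1 gene copy of many of them gives the Minute phenotype of slow growth and short bristles. Their messages are among the most abundant in growing tissue, and in the larval fat body, an organ of nutrient sensing and storage, ribosome production is tied to feeding through the TOR pathway.

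Each value gives a level relative to the library's own upper quartile, so a gene at 1 has the level of the feature at that quartile. In all libraries of a set the same number of features stood at 1 or above (2402, 2080, 2117 and 2464 features in sets 13-21, 49-54, 55-63 and 67-92), so the 4 sets were scaled separately and levels cannot be set side by side across them. Sequencing depth is unknown. Between 6183 and 8709 features per library had a value above 0. Each of the 11 fat body markers found in the table was above 0 in at least 1 library of every set and diet, with a summed value of 5354 to 15046 per library, while the summed imaginal disc markers reached at most 0.963. Salivary gland markers summed to between 2590 and 6883 in set 13-21 and to at most 838 in the other sets. Cuticle markers summed to between 163 and 412 in each library. Library 76, high-sugar 60100 r4, stood apart in the ribosomal proteins: it held 4 of the 7 values that lay far from the rest of their group of 4 libraries, and results that rest on it are given with and without it.

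Of the 84 genes, 77 had a mean of at least 1 and were tested (46 large and 31 small subunit), among 2428 features tested in all. Over the 4 sets, 27 of the 77 were higher on high sugar and 0 were lower at a limma adjusted p under 0.05. The background is 23.1% of all tested features called higher and 13.4% called lower. The median log2 change of the 77 was 0.21, against 0.06 for all tested features, and 72 of the 77 lay above 0. The 5 members below 0 were RpL35, RpL22, RpS20, RpS24 and RpL27, none of which passed. At an unadjusted p under 0.05 the count of members was 40 (47.6% of all tested features). Ribosomal protein messages are abundant, and among the 766 features that average 5 or more the background of higher calls was 30.2%, with 29 members called higher and a median change of all these features of 0.14.

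**Figure D1:**
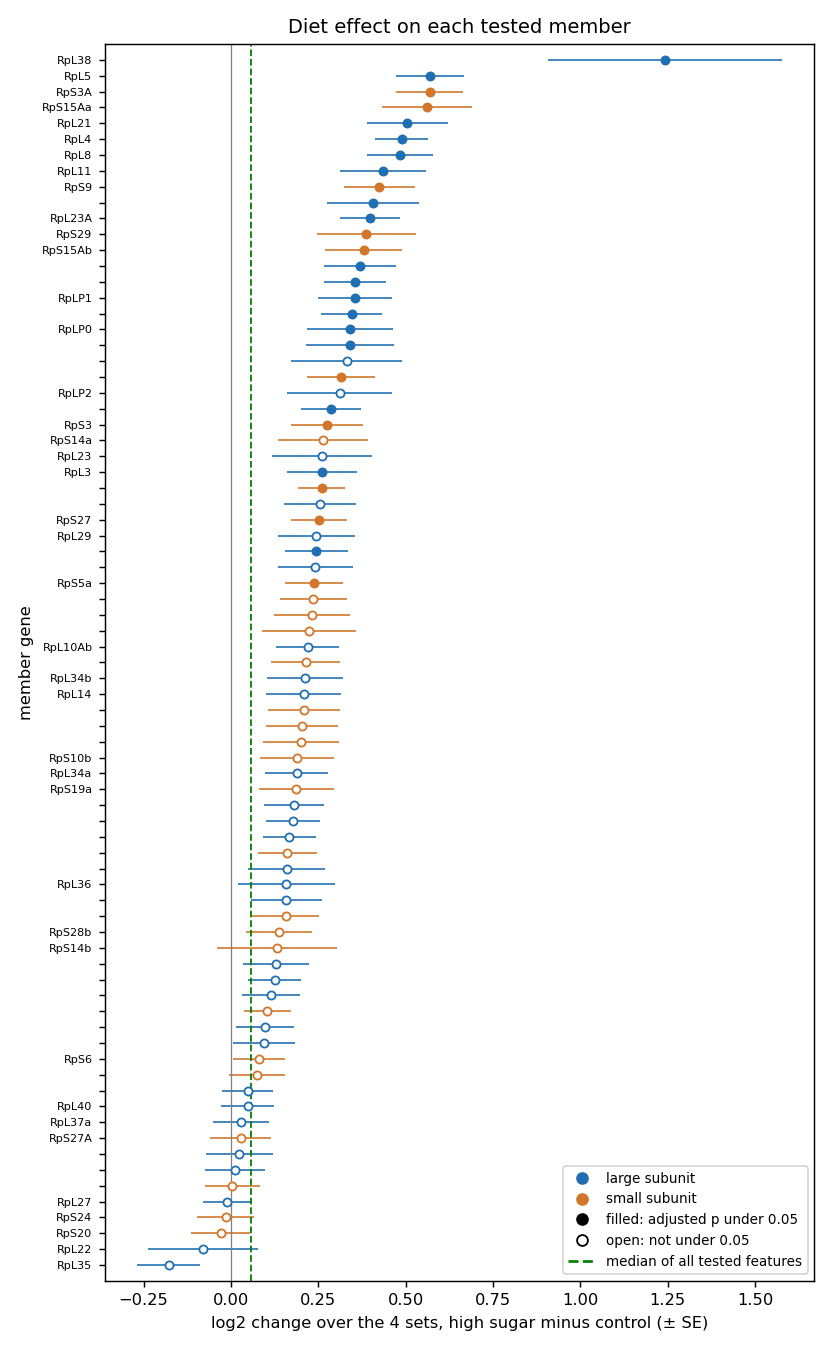
Log2 change from control to high-sugar diet over the 4 sets for each of the 77 tested ribosomal protein genes, with the limma standard error as bar, the large subunit in blue and the small subunit in orange, and with names beside part of the members. Filled points (27) had an adjusted p under 0.05; RpL38 lies alone at 1.24, the next highest is RpL5 at 0.57, and RpL35 is lowest at -0.18.

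RpL4, which lines the tunnel through which the growing peptide leaves the large subunit, had the smallest adjusted p of the members. It stood at 28.8, 26 and 22.1 on the control diet and at 38.7, 43.8 and 41.7 on high sugar in set 49-54. In set 55-63 the values were 39.3, 41.1 and 47.1 against 57, 65.8 and 72.1, and in set 67-92 they were 82.7, 78.9, 84 and 85.6 against 119.6, 97.1, 131 and 98.1. In these 3 sets every high-sugar library lay above every control library, whereas in set 13-21 the diets overlapped (12.2, 11.4 and 16.4 against 15.1, 16.2 and 18). RpL4 rose by 0.49 ± 0.08 log2 units over the 4 sets (SE, adjusted p = 3.14e-05), and its change was called in sets 49-54 (0.68), 55-63 (0.60) and 67-92 (0.41).

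RpL5 and RpL11 bind the 5S ribosomal RNA and enter the large subunit with it as 1 particle. RpL5 in set 55-63 stood at 116, 92 and 92.4 on control food and at 189.5, 194 and 199 on high sugar, and in set 49-54 at 99.99, 95.8 and 109 and 179.6, 157 and 148. In set 13-21 it stood at 227, 209.7 and 249.6 and 294, 271 and 274. The diets did not overlap in these 3 sets, and overlapped in set 67-92 (106, 92.2, 114 and 79.8 against 115, 199, 109.6 and 113), where the value of 199 belongs to library 76. RpL5 rose by 0.57 ± 0.10 log2 units over the 4 sets (adjusted p = 9.64e-05). RpL11 rose by 0.43 ± 0.12 (adjusted p = 0.00805), but without set 55-63 its change was 0.28 with an adjusted p of 0.124, and without set 67-92 it was 0.37 with 0.0821. In set 13-21 RpL11 was lower on high sugar by its mean change (-0.27, adjusted p = 0.458), and in set 55-63 it rose from 48.5, 52.5 and 71.8 to 99.7, 112 and 124 (log2 change 0.96 ± 0.18, adjusted p = 0.0007).

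RpL8, RpL23A, RpL21 and RpL3 are other large-subunit members that rose over the 4 sets. RpL8, beside the site where peptide bonds form, rose by 0.48 ± 0.09 (adjusted p = 0.000377) and was higher on high sugar in the mean of all 4 sets. RpL23A, at the tunnel exit, rose by 0.40 ± 0.09 (adjusted p = 0.000963), and RpL21 by 0.50 ± 0.12 (adjusted p = 0.0017). RpL3, which also reaches toward the catalytic site, rose by 0.26 ± 0.10 (adjusted p = 0.0449), with a change called in set 49-54 alone (0.66, adjusted p = 0.00523). Under the 41 alternatives run for the effect over the 4 sets, RpL3 was under the threshold in 15.

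The stalk of the large subunit, built of RpLP0, RpLP1 and RpLP2, draws elongation factors to the ribosome. RpLP0 rose by 0.34 ± 0.12 (adjusted p = 0.0328) and RpLP1 by 0.35 ± 0.11 (adjusted p = 0.0116), RpLP0 being under the threshold in 23 of the 41 alternatives, while the change of RpLP2 was 0.31 ± 0.15 (adjusted p = 0.105). RpLP1 stood at 160.2, 131 and 153 on control food and at 226, 256 and 252 on high sugar in set 55-63, where the diets did not overlap. In set 13-21 it stood at 105, 98.7 and 118 and 99.95, 86.2 and 107, with the diets overlapping. RpLP1 did not pass when set 49-54 (0.30, adjusted p = 0.102) or set 55-63 (0.24, adjusted p = 0.154) was left out.

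Among small-subunit members the largest changes over the 4 sets were those of RpS3A and RpS15Aa. RpS3A in set 13-21 stood at 168, 155 and 179 on the control diet and at 187, 195 and 223 on high sugar, and in set 49-54 at 76.9, 74.5 and 86.1 and 137, 108 and 106. In set 55-63 the values were 78.9, 59.6 and 72 against 116, 143 and 149.9, and in set 67-92 61, 62.7, 71.6 and 53 against 76.6, 129.7, 86.6 and 73. In each of the 4 sets every high-sugar library lay above every control library. RpS3A rose by 0.57 ± 0.10 over the 4 sets (adjusted p = 8.67e-05). RpS15Aa rose by 0.56 ± 0.13 (adjusted p = 0.0017), and its values in set 55-63 went from 63.6, 47 and 57.5 to 116, 132 and 147, a change of 1.22 ± 0.21 (adjusted p = 0.000261). In set 13-21 its change was 0.03 ± 0.21.

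RpS9 and RpS3, both at the channel where messenger RNA enters, rose by 0.42 ± 0.10 (adjusted p = 0.00225) and 0.28 ± 0.10 (adjusted p = 0.0396). Of the 41 alternatives, RpS9 was under the threshold in 41 and RpS3 in 18. RpS6, the substrate of S6 kinase, changed by 0.08 ± 0.07 over the 4 sets and did not pass (adjusted p = 0.414); it was called higher in set 49-54 (0.38, adjusted p = 0.0328). RpL40 and RpS27A, which are made as fusions to ubiquitin, changed by 0.05 ± 0.08 (adjusted p = 0.64) and 0.03 ± 0.09 (adjusted p = 0.823).

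On the deposited scale the counts and medians of the members differed between the 4 sets. A difference between the sets was called for 20 of the 77 members, a smaller share than the 37.0% of all tested features. In set 49-54, 24 members were called higher and 0 lower (background 24.2% higher and 10.2% lower), and all 77 had a change above 0, which depended on the scaling (30 of 77 with an equal sum in each library and 38 under quantile normalization). In set 55-63 the counts were 22 and 0 (17.8% and 5.19%), with 72 above 0. In set 67-92 they were 22 and 2 (16.8% and 14.8%), with 60 above 0. With the close pairs of that set averaged (libraries 67 with 83 and 75 with 91), 5 members were higher and 1 lower, beside 255 and 231 of 2402 tested features. The members' median was then 0.33, against 0.03 for all tested features. Whether these pairs are repeat runs of the same library could not be judged. In set 13-21, 0 members were called in either direction by limma (2.14% and 5.85%), 11 had an unadjusted p under 0.05 (19.8% of all tested features), and 57 of the 77 lay below 0. Median changes of the members were -0.14, 0.35, 0.39 and 0.31 in the order of the sets, 0.12 below the median of all tested features in set 13-21 and 0.23, 0.27 and 0.28 above it in the others. Against the 766 features that average 5 or more, these gaps were smaller. The members' median was 0.04 below theirs in set 13-21 and 0.06, 0.12 and 0.20 above it in the others. Without library 76 the median in set 67-92 was 0.19, also 0.19 above that of all features, and leaving out any 1 library gave 0.19 to 0.43 there and 0.26 to 0.49 in set 55-63. Under quantile normalization the 4 medians were 0.03, -0.0049, 0.02 and 0.09, and with an equal sum in each library they were -0.02, -0.06, 0.16 and 0.21. These scalings also move the median of all tested features. Relative to it the members' medians were 0.02, -0.03, -0.0078 and 0.12 under quantile normalization. With an equal sum they were -0.08, 0.10, 0.20 and 0.25 relative to it. Higher means on high sugar in all 4 sets were found for 15 members, 14 of which were called over the 4 sets, the exception being RpL17 (0.18, adjusted p = 0.0976). A further 45 members were higher in sets 49-54, 55-63 and 67-92 and lower in set 13-21. Both patterns were counted on the deposited scale alone, and the share of all tested features with them is not given. With set 13-21 left out, 54 of the 77 were called higher over the remaining sets (32.3% of all features tested there, against 23.1% with the set included).

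Single libraries moved the counts within sets. In set 49-54 the 24 became 8 without control library 50 (18.8% of all tested features called higher) or without high-sugar library 52 (18.5%). In set 55-63 the 22 became 14 without control library 56 (14.8%) or high-sugar library 62 (12%), and 13 without high-sugar library 63 (12.8%). In set 67-92 the 22 became 6 without high-sugar library 76 (11.6%) or 91 (11.1%), 9 without control library 67 (14.1%), 10 without control library 68 (14.3%), and 40 without high-sugar library 92 (21.3%). The 2 lower calls of that set became 1 without library 75 (12.9% of all called lower), 76 (9.54%) or 91 (9.16%) and 0 without control library 84 (10.5%). In set 13-21 the 0 lower calls became 1 without library 56 (6.42%), 57 (5.88%) or 76 (6.61%), which enter through the shared spread, and 2 without library 92 (6.41%), and the 0 higher calls became 1 without control library 15 (2.36%). Over the 4 sets the count stayed between 20 and 36 when any single library was left out, and it was 22 without library 76 (21.7%).

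Sets 13-21 and 49-54, both w1118 cg, came from the same cross, and their median changes had opposite signs on the deposited scale (-0.14 and 0.35). The signs were the other way round under quantile normalization (0.03 and -0.0049), and both medians were below 0 with an equal sum (-0.02 and -0.06). Relative to all tested features, the members' median with an equal sum was 0.08 lower in set 13-21 and 0.10 higher in set 49-54. Under quantile normalization it was 0.02 higher in set 13-21 and 0.03 lower in set 49-54. Every high-sugar library lay above every control library for 46 members in set 49-54 (34.3% of all tested features did) and for 4 members in set 13-21 (9.23%): RpL5, RpL21, RpL41 and RpS3A. The reverse order held for 0 members in set 49-54 (16.8%) and for 22 in set 13-21 (17.2%). In set 55-63 the order was complete for 33 members upward (28.1%) and 0 downward (10.1%), and in set 67-92 for 9 upward (13.1%) and 2 downward (12.4%). After scaling by median-of-ratios, the upward and downward counts were 3 (10.3%) and 19 (16.7%) in set 13-21, 33 (30.2%) and 0 (19.9%) in set 49-54, 32 (29.9%) and 0 (9.35%) in set 55-63, and 19 (19.5%) and 0 (7.13%) in set 67-92.

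Within sets, marker genes of several other tissues differed between the diets. In set 49-54 the summed midgut markers were 5.39 to 79.7 on control food and 1.28 to 1.93 on high sugar, the salivary gland markers 38.2 to 726 and 6.23 to 20.1, the haemocyte markers 12.5 to 15.9 and 3.74 to 5.21, and the Malpighian tubule markers 14.7 to 22.8 and 2.22 to 2.38. The cuticle markers of that set went the other way, with 192 to 249 on control food and 264 to 308 on high sugar, though limma called 0 of the 5 tested. Its muscle markers and its neuron and glia markers overlapped between the diets. The summed fat body markers of that set were 5354 to 7236 on control food and 10584 to 12358 on high sugar. In set 67-92 they were 13970 to 15046 on control food and 9522 to 13198 on high sugar, without overlap and with the lowest value in library 76, and in sets 13-21 and 55-63 the diets overlapped. In set 55-63 the midgut markers were 63.6 to 167 on control food and 2.18 to 5.02 on high sugar, and in set 67-92 the muscle markers were 14.7 to 21.5 and 25.1 to 78.9. In set 13-21 the muscle markers were 15.7 to 23.5 on control food and 10.1 to 13.3 on high sugar. The number of features above 0 was also lower on high sugar in set 49-54 (7086 to 7934 against 6500 to 6636) and in set 55-63 (7124 to 7538 against 6183 to 6625). The part of these differences in the ribosomal protein results was not tested, and in these bulk samples fewer cells of a type cannot be told apart from less RNA per cell.

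**Figure D2:**
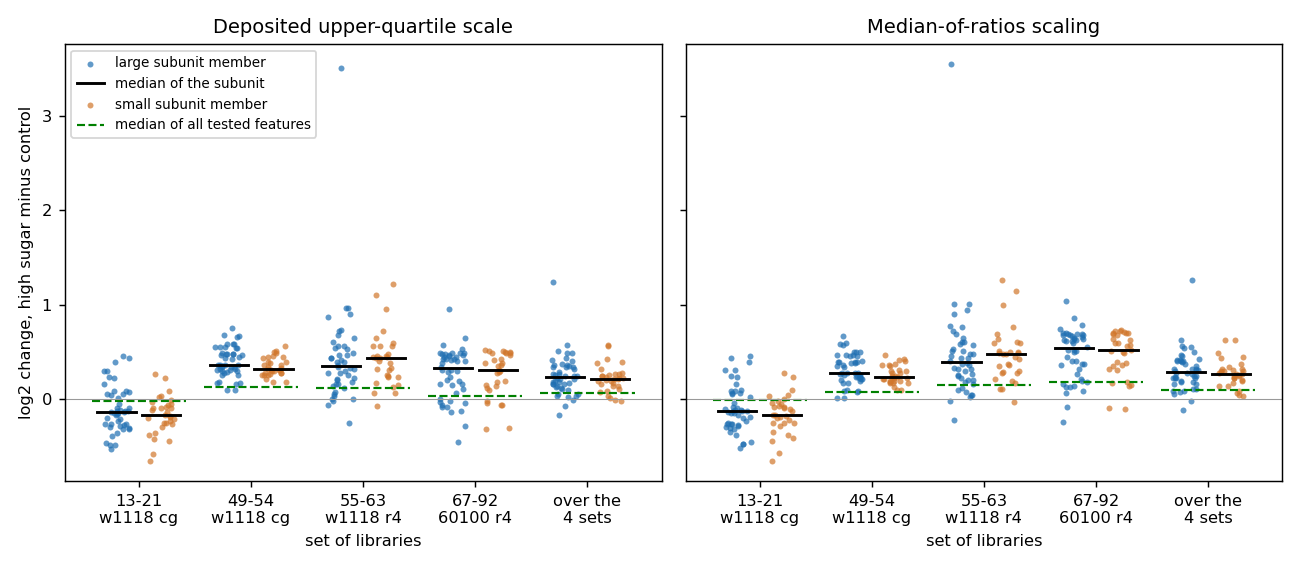
Log2 change of each of the 77 tested ribosomal protein genes in each set and over the 4 sets, on the deposited scale (left) and after median-of-ratios scaling (right), with subunit medians as black lines and the median of all tested features dashed. Set 13-21 has medians below 0 for both subunits on both scales, and RpL38 is the single point above 3 in set 55-63.

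A second scaling, in which each library was divided by its median ratio to the across-library geometric mean over the 5159 features above 0 everywhere, changed the counts by set. Over the 4 sets it gave 33 members higher and 0 lower (background 27.7% and 11.4%). In set 49-54 the count fell from 24 to 8 with 0 lower (20.8% and 13%), in set 55-63 it was 19 with 0 lower (19.5% and 5.16%), and in set 67-92 it rose from 22 to 46 with 0 lower (27.8% and 8.17%). Set 13-21 again had 0 in either direction (1.98% and 5.37%), with 7 members at an unadjusted p under 0.05 (19.4%). The scaling moved the median of all tested features in set 67-92 from 0.03 to 0.18. Relative to that median, the members' median was 0.28 higher on the deposited scale and 0.34 higher after this scaling. Without library 76 this scaling gave 22 members higher and 0 lower in set 67-92, beside 491 and 114 of 2415 tested features. The members' median was then 0.25 higher than that of all tested features.

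When the same scaling was computed over the 2231 tested features above 0 in every library, 17 members were higher and 1, RpL35, was lower over the 4 sets. The background was then 17.3% higher and 17.8% lower, and the members' median change was 0.13 against -0.01 for all. Quantile normalization gave 14 higher and 6 lower (17.8% and 17.5%), with a median of 0.02, and an equal sum in each library gave 14 higher and 1 lower (13.7% and 21.8%). Called higher under all 5 scalings were 13 members, beside 13.8% of the 2392 features tested under all of them: RpL4, RpL5, RpL8, RpL11, RpL13, RpL13A, RpL21, RpL23A, RpL38, RpLP1, RpS3A, RpS9 and RpS15Aa.

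The counts within sets moved with these scalings too. Under median-of-ratios scaling over the tested features, 1 member was higher and 0 lower in set 13-21 (background 3.68% and 4.34%), 2 and 0 in set 49-54 (15.5% and 19.5%), 13 and 0 in set 55-63 (11.6% and 10.3%), and 23 and 3 in set 67-92 (15.4% and 13.1%). Under quantile normalization 4 were higher and 0 lower in set 13-21 (2.8% and 4.65%), 1 and 1 in set 49-54 (21.3% and 14.6%), 10 and 3 in set 55-63 (14.2% and 9.1%), and 3 and 8 in set 67-92 (10.2% and 15.6%). With an equal sum 1 was higher and 0 lower in set 13-21 (3.08% and 3.8%), 0 and 0 in set 49-54 (12.3% and 27%), 11 and 0 in set 55-63 (11% and 11.1%), and 9 and 4 in set 67-92 (10.8% and 14%). The share of members called higher in set 55-63 was thus near the background under quantile normalization and with an equal sum, and set 67-92 had more lower than higher calls under quantile normalization. Set 49-54, with 24 higher calls on the deposited scale, had at most 2 under these 3 scalings. Among the features that average 5 or more, 2 members were lower in set 13-21 (10.3%) and 0 higher (2.22%), with 26 higher and 0 lower in set 49-54 (34.7% and 10.7%), 26 and 0 in set 55-63 (27.8% and 5.61%), and 22 and 2 in set 67-92 (20.9% and 14.9%).

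The summed share of the ribosomal proteins in a library does not depend on the divisor. It ran from 14.1% of the summed values in library 56 to 22.4% in library 76. In set 55-63 it was 17.7, 14.1 and 18.2% on control food and 18.4, 19.2 and 19.9% on high sugar, without overlap. In set 67-92 it was 16.1, 17.5, 16.4 and 16.3% against 18.2, 22.4, 19.1 and 16.7%, with library 92 below control library 68. In set 13-21 the shares were 15.5, 15.9 and 16% against 15.9, 15.2 and 16.5%, and in set 49-54 they were 15.9, 15.9 and 18.2% against 16.8, 15.6 and 16.4%; the diets overlapped in both sets of w1118 cg. The sum of a library includes a few very abundant fat body messages, so a share moves with them too.

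**Figure D3:**
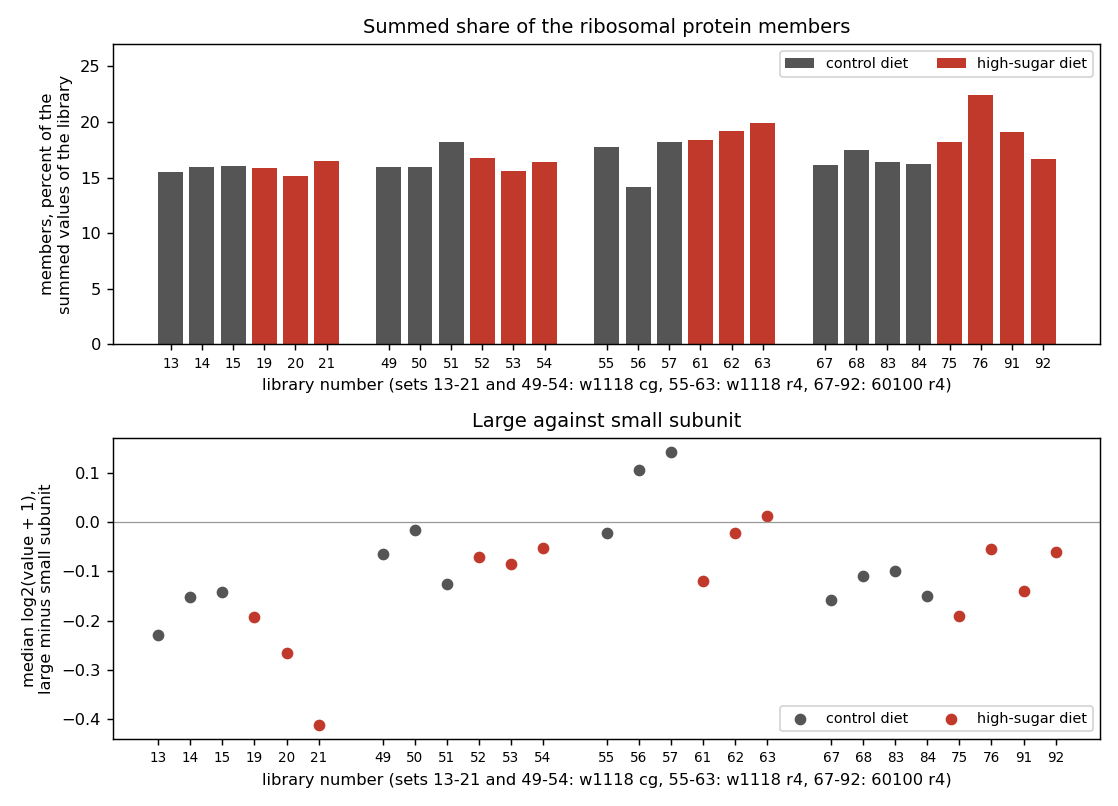
Top: summed value of the 84 ribosomal protein features as percent of the summed values of each library, control diet in grey and high sugar in red, from 14.1% (library 56) to 22.4% (library 76). Bottom: median log2(value + 1) of the large-subunit members minus that of the small-subunit members in each library, from -0.41 (library 21) to 0.14 (library 57).

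The large and the small subunit had like median changes. Over the 4 sets the median change was 0.23 for the 46 large-subunit and 0.21 for the 31 small-subunit members, and 17 and 10 were called higher. By set, the large and small medians were -0.14 and -0.18 in set 13-21, 0.36 and 0.32 in set 49-54, 0.35 and 0.43 in set 55-63, and 0.32 and 0.31 in set 67-92. After median-of-ratios scaling they were -0.13 and -0.17, 0.27 and 0.23, 0.39 and 0.47, and 0.53 and 0.52. A divisor per library moves both medians alike, so the gap between them is nearly the same on both scales by construction, and it was at most 0.08 log2 units. Without library 76 the medians in set 67-92 were 0.17 for the large and 0.24 for the small subunit, so that the sign of the gap turned from 0.02 to -0.07. Large-subunit members held 58.0 to 62.8% of the summed ribosomal protein value in a library. Within libraries the median large-subunit member lay below the median small-subunit member in 23 of 26 libraries, the exceptions being libraries 56, 57 and 63. No test was made of the gap between subunits.

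RpL38, a small protein at the outer face of the large subunit, for which mouse work has described a role in translating certain Hox messages, had the widest range of levels of the tested members. In set 55-63 RpL38 (CG18001) stood at 7.26, 2.15 and 5.08 on control food and at 55.2, 74.1 and 54.7 on high sugar. The lowest high-sugar library was thus far above the highest control library, and the ratio of the means was 12.7. The log2 change there was 3.51 ± 0.46 (adjusted p = 1.72e-05), and it passed under all 36 settings run for that set. For comparison, the next largest changes in set 55-63 were those of RpS15Aa (1.22), RpS29 (1.1), RpL11 (0.96) and RpL5 (0.96).

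In set 13-21 RpL38 stood at 142, 124 and 118 against 142, 139.6 and 116, and in set 49-54 at 37.1, 37.7 and 40.2 against 63.3, 57.4 and 49.2. The diets overlapped in set 13-21 and did not overlap in set 49-54, where the change of 0.54 ± 0.46 did not pass (adjusted p = 0.388). In set 67-92 the values were 0.721, 0.321, 1.04 and 0.59 on control food and 0.888, 10.9, 1.69 and 0.738 on high sugar. The 10.9 was library 76, and the change of 0.96 ± 0.40 (adjusted p = 0.0704) became 0.33 ± 0.23 (adjusted p = 0.326) without that library. The diet effect on RpL38 differed between the sets (joint test of the interaction, adjusted p = 0.00162). The change over the 4 sets, 1.24 ± 0.33 (adjusted p = 0.00587), became 0.56 with an adjusted p of 0.118 when set 55-63 was left out.

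**Figure D4:**
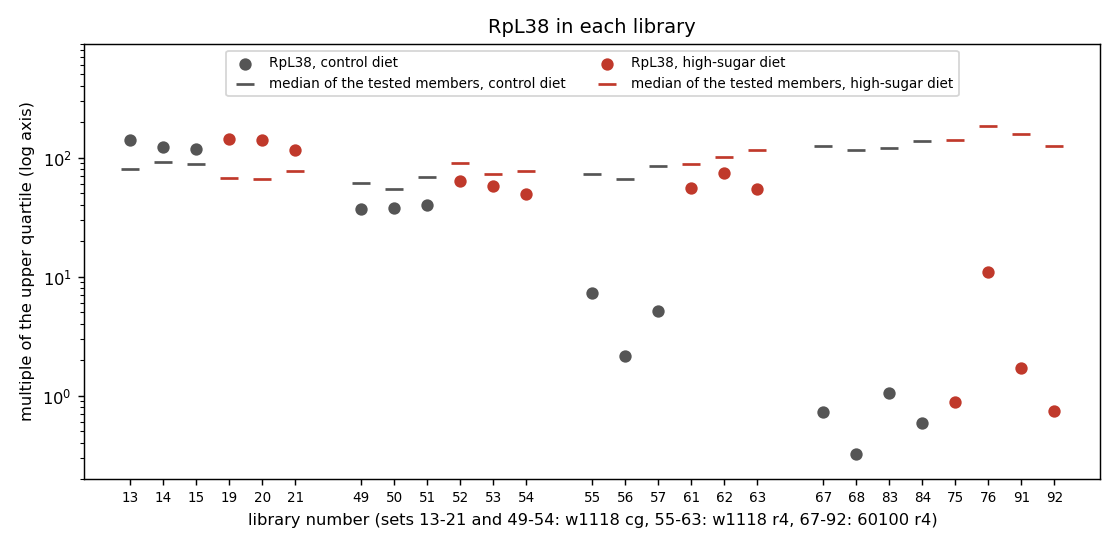
Value of RpL38 in each of the 26 libraries (points) beside the median tested ribosomal protein gene of the same library (dashes), as multiples of the upper quartile on a log axis, control diet in grey and high sugar in red. RpL38 lies above the median member in set 13-21 and far below it in the control libraries of set 55-63 and in set 67-92, and the scales of the 4 sets are not common, so only the distance from point to dash can be compared across sets.

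The level of RpL38 against the other ribosomal proteins of the same library, which needs no common scale, also differed by set. RpL38 was 1.34 to 2.10 times the median member in set 13-21 and 0.585 to 0.795 times in set 49-54. In set 55-63 it was 0.0324 to 0.0989 times the median member on control food and 0.472 to 0.736 times on high sugar. In set 67-92 it was 0.00276 to 0.0108 times in 7 libraries and 0.0595 times in library 76. Stock, driver and set change together, so their parts in this order cannot be told apart, except that sets 13-21 and 49-54 share the cross.

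A change in relative level between the sets was seen in other members too. Averaged over both diets, the level of a member against the median member ranged over the 4 sets by a median of 0.88 log2 units; 33 of the 77 members ranged over more than 1 log2 unit and 6 over more than 2. RpL38 ranged over 7.73 log2 units, followed by RpL41 (2.52), RpL8 (2.41), RpL39 (2.38), RpS3A (2.12) and RpL34b (2.02). RpL8, RpL34b and RpL4 stood lowest against the median member in set 13-21 and highest in set 67-92, and RpL41, RpL39, RpS3A and RpL5 the other way round. The order of the 77 levels was most alike in sets 49-54 and 55-63 (Spearman's rho across genes 0.89) and least alike in sets 13-21 and 67-92 (0.28). Genes are not independent replicates, and these coefficients are descriptions.

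**Figure D5:**
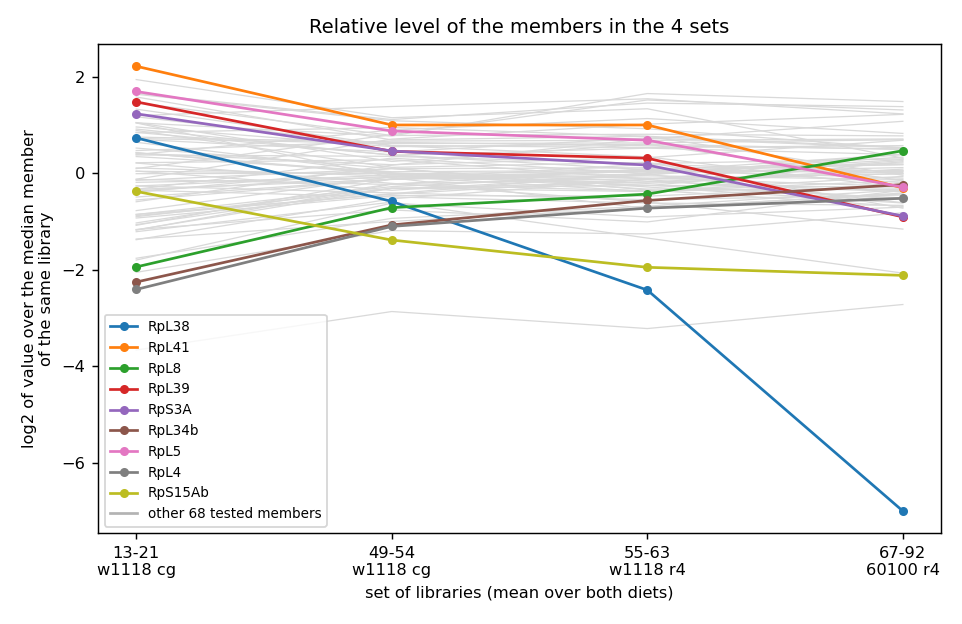
Level of each tested ribosomal protein gene against the median tested member of the same library (log2, mean over both diets) in the 4 sets. The 9 coloured genes have the widest ranges, RpL38 falling from 0.73 in set 13-21 to -7.00 in set 67-92, and the other 68 tested members are grey.

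The shortest proteins changed place in this way. Annotation of another genome build was used for coding lengths alone and matched all 84 genes. Across the 77 tested members, coding length and relative level had a Spearman's rho between -0.53 and -0.39 in the libraries of set 13-21 and between 0.12 and 0.52 in set 67-92, with the 0.12 in library 76 and at least 0.36 in the other 7. The 5 members of at most 70 residues are RpL38, RpL39, RpL41, RpS28b and RpS29. RpL41, a peptide at the interface of the subunits, was 3.28 to 6.55 times the median member in set 13-21, 0.524 to 0.870 times in 7 libraries of set 67-92, and 1.51 times in library 76. RpS29, a zinc-binding protein of the small subunit, was 2.93 to 4.57 times in set 13-21 and 0.887 to 1.80 times in set 67-92. Coding length and the diet change over the 4 sets had a rho of 0.21. Why short members differ between sets was not tested.

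The most abundant members by mean over all libraries were RpL29 (262), RpL36 (255), RpLP2 (251), RpL23 (218) and RpS29 (215), as multiples of the upper quartile per transcript length. These means pool 4 separately scaled sets, and the order differed by set: against the median member of the same library RpL41 was highest in set 13-21 (2.22 log2 units above it), RpLP2 in set 49-54 (1.38), and RpL36 in sets 55-63 (1.65) and 67-92 (1.49). The lowest of those tested were RpL34a (12.4), RpS15Ab (35.7), RpL22 (37.5), RpS14b (45.1) and RpL38 (49.3). Averaged over both diets, RpL34a was lowest in each set but 67-92, where RpL38 was. In control libraries 55, 56 and 57 RpL38 (7.26, 2.15 and 5.08) also lay below RpL34a (8.83, 7.93 and 9.36). Of the 5 highest, RpS29 rose over the 4 sets by 0.39 ± 0.14 (adjusted p = 0.0358, under the threshold in 24 of 41 alternatives), and the others did not pass: RpL29 by 0.24 ± 0.11, RpL36 by 0.16 ± 0.14, RpLP2 by 0.31 ± 0.15 and RpL23 by 0.26 ± 0.14, with adjusted p-values from 0.0801 to 0.372.

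The members that did not rise were led by RpL35, which sits at the tunnel exit. In set 67-92 RpL35 stood at 147, 160.2, 122 and 178 on control food and at 117, 80.3, 109.7 and 136 on high sugar. The diets overlapped, since high-sugar library 92 lay above control library 83, and the change of -0.46 log2 units passed (SE 0.15, adjusted p = 0.0196) but not after median-of-ratios scaling (-0.25, adjusted p = 0.155) or without library 76 (-0.32, adjusted p = 0.0898). Over the 4 sets the change was -0.18 ± 0.09 (adjusted p = 0.122). RpL22, RpS20, RpS24 and RpL27 changed by -0.08, -0.03, -0.02 and -0.01, all with adjusted p-values of at least 0.712.

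RpS27A was called in opposite directions. It stood at 126, 110.2 and 139 on control food and at 200.2, 152 and 179 on high sugar in set 49-54, and at 220.2, 205, 216 and 236 and 168, 198, 163 and 174 in set 67-92. The diets did not overlap in either set, with high sugar above in the first and below in the second. The changes were 0.49 ± 0.12 (adjusted p = 0.00219) and -0.32 ± 0.10 (adjusted p = 0.0199), and the difference between the sets had an adjusted p of 0.0016, the smallest of the members. After median-of-ratios scaling the change in set 67-92 was -0.11 ± 0.11 (adjusted p = 0.459), with the close pairs of libraries averaged it was -0.29 (adjusted p = 0.0947), and under median-of-ratios scaling the difference between the sets still passed (adjusted p = 0.0294).

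In all, the diet effect differed between the sets for 20 of the 77 members, 12 large and 8 small subunit, against a background of 37.0% of all tested features. Beside RpS27A and RpL38 the smallest adjusted p-values were those of RpS27 (0.00348), RpL14 (0.00369) and RpS14a (0.00393). RpS27 in set 55-63 stood at 42.5, 41 and 49.98 on control food and 68.6, 76.7 and 75.8 on high sugar, without overlap, a change of 0.72 ± 0.11 (adjusted p = 9.11e-05), and in set 13-21 it changed by -0.07 ± 0.11. RpL14 changed by -0.47 in set 13-21 and by 0.46, 0.54 and 0.28 in the other sets. RpS14a, on the platform of the small subunit, stood at 79.8, 99.9 and 74.7 against 59.3, 55.6 and 52.4 in set 13-21, with every high-sugar library below the control libraries, and changed by -0.59 ± 0.19 (adjusted p = 0.0566). In sets 49-54, 55-63 and 67-92 it was called higher, by 0.49, 0.59 and 0.48. Of the 36 settings run for each of these sets, RpS14a was under the threshold in 12, 30 and 28. After median-of-ratios scaling the difference between the sets was called for 16 members (35.9% of all tested features), under quantile normalization for 8 (33.5%), with an equal sum for 12 (31.1%), under median-of-ratios scaling over the tested features for 10 (31.4%), among features averaging 5 or more for 25 (50.8%), with set 13-21 left out for 6 (20.1%), and with high-sugar library 92 left out for 31 (44.9%).

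For 10 pairs of genes the names, alike but for a final a or b or for -like, mark related copies of a ribosomal protein. Their sequences were not compared here, so how alike the copies are is not shown. In 7 pairs a single copy gave nearly all of the signal. RpS10a, RpS28a, RpL37b and RpL22-like were listed at 0 in all 26 libraries, RpL10Aa was above 0 in 1 library, RpS19b in 3 and RpS5b in 23, with a highest value of 0.650 for RpS5b. These 7 genes are the members that were not tested, and RpL22-like, RpS19b and RpS5b are best known from the germ line. Their partners had means of 97.3 (RpS10b), 101 (RpS28b), 79.9 (RpL37a), 37.5 (RpL22), 104 (RpL10Ab), 109 (RpS19a) and 83.5 (RpS5a).

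Both copies were expressed in the other 3 pairs. RpS15Aa, with a mean of 103, exceeded RpS15Ab (35.7) in all 26 libraries, and RpS14a (76.6) exceeded RpS14b (45.1) in all 26, while RpL34b (62.1) exceeded RpL34a (12.4) in all 26. RpS15Ab rose by 0.38 ± 0.11 over the 4 sets (adjusted p = 0.00974). RpS14b changed by 0.13 ± 0.17 (adjusted p = 0.567), RpL34a by 0.19 ± 0.09 (adjusted p = 0.105) and RpL34b by 0.21 ± 0.11 (adjusted p = 0.128). In set 67-92 RpL34a stood at 16.7, 17.2, 17.6 and 18.4 on control food and at 24.7, 29.5, 26.5 and 19.5 on high sugar, without overlap, and rose by 0.48 ± 0.12 (adjusted p = 0.007). How reads were divided between copies is not given in the sources used here, so the values of such pairs are uncertain. RpL37a and RpL37b are named RpL37-1 and RpL37-2 in the current RefSeq annotation.

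Over the 4 sets, ribosomal proteins that the table lists under other names changed in the same direction as most members. Of 4 that were tested, 3 rose (23.1% of all tested features did): sta, the laminin-receptor-related protein of the small subunit, by 0.46 ± 0.09 (adjusted p = 0.000377), Qm, now RpL10, by 0.47 ± 0.11 (adjusted p = 0.00224), and Rack1, a scaffold on the small subunit, by 0.20 ± 0.07 (adjusted p = 0.0373). The fourth, oho23B, now RpS21, changed by 0.19 ± 0.13 (adjusted p = 0.241). The median of the 4 was 0.33, against 0.06 for all tested features. In set 13-21 sta (0.34), Qm (0.13) and Rack1 (0.15) lay above 0 and oho23B (-0.20) below, with 0 called. Their median there was 0.14, against -0.14 for the members. In set 49-54 sta stood at 40.5 ± 2.18 (SD, n = 3) on control food and 62.6 ± 2.91 (n = 3) on high sugar.

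Of the elongation and termination factors, 3 of 7 tested rose and 0 fell (23.1% and 13.4% of all tested features): Ef2b, which moves the ribosome along the message, by 0.37 ± 0.06 (adjusted p = 7.49e-05), and the elongation factor 1 subunits Ef1gamma by 0.32 ± 0.08 (adjusted p = 0.00224) and Ef1beta by 0.26 ± 0.07 (adjusted p = 0.00991). Ef1alpha48D, which brings aminoacyl-tRNA, changed by -0.04 ± 0.14 (adjusted p = 0.853). In set 67-92, 2 of the 7 were called higher and 1 lower (eEF1delta, -0.32, adjusted p = 0.0278), with a median of -0.24. Of 19 tested initiation factors 6 rose and 2 fell, near those shares, with a median of 0.14, and in set 67-92 the counts were 3 and 4 (16.8% and 14.8%). Those with the smallest adjusted p were eIF5B, which joins the subunits, by 0.21 ± 0.06 (0.0071), the helicase eIF-4a by 0.26 ± 0.08 (0.0083), the eIF3 subunit Trip1 by 0.27 ± 0.08 (0.00887) and eIF-1A, which fell by 0.23 (SE 0.07, 0.0159). The other that fell was the cap-binding protein eIF-4E, by 0.23 (SE 0.08, 0.019).

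Genes of ribosome assembly were mostly below the filter: of 19 found, 2 were tested, Nop60B (-0.04 ± 0.08, adjusted p = 0.737) and hoip (-0.11 ± 0.09, adjusted p = 0.337), and limma called 0 of them. Of 13 genes of the TOR pathway, of Myc and of factors at ribosomal protein promoters, 2 were tested. Thor, the translation inhibitor 4E-BP, fell by 0.38 over the 4 sets (SE 0.14, adjusted p = 0.0406). In set 67-92 it stood at 50.6 ± 7.96 (SD, n = 4) on control food and 30.8 ± 11.1 (n = 4) on high sugar. Its means on control food and high sugar were 251 and 212 in set 13-21, 113 and 118 in set 49-54, and 94.7 and 65.9 in set 55-63. Rheb, which activates TOR, changed by 0.08 ± 0.06 over the 4 sets (adjusted p = 0.242). Within sets, limma called 1 of these 2 genes lower in set 67-92 and 0 in each other set. These lists were written with earlier results of the same data known.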

How the data were processed

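Fat body RNA of 26 libraries was measured by sequencing after ribosomal RNA removal, per the labels' protocols. Bowtie 0.12.7, TopHat 1.3.2, Cufflinks 1.1.0 and the genome build dm3 are listed in the submitters' processing notes, while for annotation and filters nothing is given in the sources used here. The deposited values carry no named unit. From the values they are a ratio, a level over the library's upper quartile, made by the authors separately for the 4 sets, and Cufflinks gives levels per transcript length. Depth per library is unknown, so no counting interval is given.

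Groups and library numbers were taken from the titles. Values were taken as log2(value + 1), which understates the change of low genes, and the 2428 of 14659 features with a mean of at least 1 were tested two-sided with limma 3.58.1 in R 4.3.3 (empirical Bayes with a trend), with Benjamini-Hochberg adjustment over all features tested and a threshold of 0.05. All adjusted p-values are limma's. The effect over the 4 sets came from a model with set and diet, the effect in a set from contrasts of 8 set and diet means with the spread shared over all libraries, and the difference between sets from a joint test of the interactions. The fit was tested on simulated data.

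Alternatives were other scalings (median-of-ratios, quantile, equal sums), no filter, a pseudocount of 0.1, a filter at a mean of 5, run or background in place of set, averaging libraries 67 with 83 and 75 with 91, and leaving out each library and each set. Median-of-ratios scaling over the tested features alone and with library 76 left out were added after seeing the data. Libraries 67 and 83 (SD of the log2 difference 0.227) and 75 and 91 (0.262) were the closest pairs of replicates, against 0.326 to 0.618 for the others, and no pair was identical.

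The members and the gene lists were chosen with earlier results of these data known. Members were named for the smallest adjusted p-values, the changes farthest from the members' median, the highest and lowest levels, the smallest p-values for the difference between sets, and as a fixed set (RpL38, the stalk, the ubiquitin fusions, RpS6, RpL3, RpL5, RpL11, RpS3 and members with a copy of like name). RpL17, and the members listed for having passed in every scaling or for lying farthest in 1 set or in the range of levels, were named after their values were seen. From other lists up to 4 genes with the smallest adjusted p are named; eIF-4E and eEF1delta were added after their values were seen. Coding lengths came from the Ensembl annotation of BDGP6, another build than dm3, so no coordinates are given. Chromosomes and promoters were not analysed here, and 1 result is not reported here.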

Additional observations from a re-analysis of the deposited data

Results flagged for a closer look

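In groups of 4 libraries, 7 values lay farther from the nearest of the others than Dixon's critical value allows, among 84 groups checked (the named members, the summed share and the gap between subunits, in set 67-92 on each diet); chance gives about 1 such value in 20 groups. High-sugar library 76 held 4 of them: RpL21 at 271, RpL38 at 10.9, RpL5 at 199 and RpS29 at 329, all above the other high-sugar libraries. Control library 68 held RpL22 at 54.1, above the others, and RpS14b at 53.7, below them, and control library 84 held RpL3 at 93.3, above them.

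The diet effect differed between the 4 sets, by a joint limma test of the interactions, for 20 of the 77 members. The same test called 898 of 2428 tested features (37.0%), a larger share, so such differences are not particular to the members. The adjusted p-values were 0.0016 for RpS27A, 0.00162 for RpL38, 0.00348 for RpS27, 0.00369 for RpL14, 0.00393 for RpS14a, 0.00527 for RpL12, 0.0062 for RpS19a, 0.00658 for RpL11, 0.00978 for RpL9 and 0.00992 for RpL37a. They were 0.0124 for RpS10b, 0.0149 for RpL28, 0.0169 for RpL34a, 0.0232 for RpS15Aa, 0.0242 for RpS13, 0.0293 for RpLP2, 0.0414 for RpL15, 0.0423 for RpL23, 0.0447 for RpS16 and 0.0469 for RpLP1. In set 13-21 the change was below 0 for 17 of these 20 members, the exceptions being RpL38 (0.05), RpS15Aa (0.03) and RpL15 (0.01), and in set 49-54 it was above 0 for all 20. Of all 77 tested members, 57 lay below 0 in set 13-21 and 77 above 0 in set 49-54 on the deposited scale. The 20 were picked for differing between the sets, so their directions are a description and add no support.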

How the results depend on the processing

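Depth is unknown, each set was scaled on its own, and 3 or 4 libraries per diet and set limit the tests within sets. No paired analysis was possible because the groups compared share no replicate numbers.

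Over the 4 sets, 27 members were called higher and 0 lower. Quantile normalization gave 14 and 6, an equal sum per library 14 and 1, and median-of-ratios scaling over the tested features 17 and 1. Background in place of set gave 15 higher. Leaving out set 13-21, 49-54, 55-63 or 67-92 gave 54, 13, 10 or 17 higher. Without set 13-21, 32.3% of all tested features were called higher. For the other sets and for background in place of set that share is not given, so those counts cannot be read as particular to the members. Leaving out 1 library gave 20 to 36 higher and 0 lower.

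In set 13-21, with 0 called each way, quantile normalization gave 4 higher, the equal sum 1, median-of-ratios scaling over the tested features 1, and a mean of at least 5 gave 2 lower; leaving out 1 library gave 0 to 1 higher and 0 to 2 lower. In set 49-54, with 24 higher, median-of-ratios scaling gave 8, quantile normalization 1 higher and 1 lower, the equal sum 0, median-of-ratios scaling over the tested features 2, and leaving out 1 library 8 to 31 higher and 0 lower. In set 55-63, with 22 higher, quantile normalization gave 10 higher and 3 lower, the equal sum 11, median-of-ratios scaling over the tested features 13, and leaving out 1 library 13 to 30 higher and 0 lower. In set 67-92, with 22 higher and 2 lower, median-of-ratios scaling gave 46 and 0, quantile normalization 3 and 8, the equal sum 9 and 4, and leaving out 1 library 6 to 40 and 0 to 3. Averaging the 2 close pairs gave 5 and 1 there, beside 255 and 231 of 2402 tested features. Median-of-ratios scaling without library 76 gave 22 and 0, beside 491 and 114 of 2415. The difference between sets, called for 20 members, was called for 8 under quantile normalization, 12 under the equal sum, 10 under median-of-ratios scaling over the tested features, 6 without set 13-21, 11 without set 49-54, and 15 to 31 when 1 library was left out. For the count without set 49-54 the share of all tested features is not given. The causes of these shifts were not tested.

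Among named members the effect over the 4 sets turned sign only for members that were not called, and only RpS27A passed after turning, under quantile normalization (-0.24, adjusted p = 0.0398). These values were as follows. Under quantile normalization the change was -0.065 for RpL29, -0.0083 for RpL34a, -0.14 for RpL36, -0.12 for RpL37a, -0.16 for RpL40, -0.020 for RpS10b, -0.053 for RpS14b, -0.24 for RpS27A, -0.085 for RpS28b and -0.10 for RpS6. With an equal sum the change was -0.12 for RpL37a, -0.10 for RpL40, -0.017 for RpS14b, -0.12 for RpS27A, -0.012 for RpS28b and -0.070 for RpS6. Under median-of-ratios scaling the change was 0.046 for RpL27, 0.027 for RpS20 and 0.041 for RpS24. Under that scaling over the tested features the change was -0.059 for RpL37a, -0.039 for RpL40, -0.060 for RpS27A and -0.0073 for RpS6. Under it without library 76 the change was 0.056 for RpL22, 0.048 for RpL27, 0.034 for RpS20 and 0.065 for RpS24. Without set 13-21 the change was 0.015 for RpL27 and 0.024 for RpS24. Without set 49-54 the change was -0.066 for RpL37a, -0.032 for RpL40, -0.11 for RpS27A and -0.0099 for RpS6. Without set 55-63 the change was -0.047 for RpL37a, 0.0039 for RpS24 and -0.034 for RpS27A. Without set 67-92 the change was 0.014 for RpL22, -0.031 for RpS14b, 0.10 for RpS20 and 0.010 for RpS24. Leaving out 1 library gave changes of -0.13 to 0.016 for RpL22, -0.038 to 0.012 for RpL27, -0.0039 to 0.061 for RpL37a, -0.066 to 0.0020 for RpS20, -0.048 to 0.023 for RpS24 and -0.013 to 0.053 for RpS27A. Of 1640 values of named members under the alternatives, 1444 kept direction and side of the threshold, 111 lost the call, 28 gained it and 57 turned sign.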
